A study of Homo sapiens with 2 samples.

Results

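The 10 genes FOS, FOSB, JUN, JUNB, JUND, EGR1, IER2, IER3, IER5 and KLF6, known as immediate early and early response genes, were taken by name from the 32742 genes of a single-cell RNA table, and all 10 were listed in it. The cells were WaGa, an established Merkel cell carcinoma line that grows in suspension and carries Merkel cell polyomavirus. The cells were studied after treatment with domatinostat, an inhibitor of class I histone deacetylases dissolved in DMSO, and without treatment; dose and time are not given in the labels, nor whether the untreated cells received the solvent. Each condition had 1 library, made with 10x Genomics Chromium chemistry directly from the suspension, so no tissue dissociation preceded it. No replicate exists, so conditions could not be tested against each other, and every interval below covers counting error alone.

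Immediate early genes are transcribed within minutes of a growth factor, stress or depolarisation signal, without new protein synthesis, through promoter-bound factors such as SRF, the ELK proteins and CREB that kinases of the MAPK cascades activate. JUN, JUNB and JUND pair with FOS family proteins, or with each other, through leucine zippers to form AP-1, which binds DNA at TGANTCA and related words. Transcripts of FOS, FOSB and EGR1 are known for brief bursts after a stimulus and low levels in between, whereas JUND is known for steady expression in many cell types. Histone acetylation accompanies the activation of many of these genes.

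The library labelled treated held 6679 cells and 60160108 unique molecular identifiers (UMIs, each standing for 1 captured transcript), the median cell having 8578, while 4137 cells with 45562976 UMIs in sum, the median cell having 11125, made up the library labelled untreated. The last word of a cell name, Treated or Ctrl, told the libraries apart, and 48 cell barcodes occurred in both. CDKN1A, a cell cycle inhibitor gene that histone deacetylase inhibitors induce in many cells, had 39.4 CPM in the library labelled treated and 97.9 CPM in the library labelled untreated (ratio 0.403, 95% interval 0.383 to 0.423). Directions here therefore follow the words in the cell names. The match of these words to the treatment was not tested, and exchanged words would turn every direction. CPM are UMIs of a gene per 1000000 UMIs of the library, and since 1 UMI is counted per captured 3′ end, they do not grow with transcript length. All 12 markers of Merkel cell carcinoma looked up were above 50 UMIs, KRT20 at 248.0 CPM in the library labelled treated and 295.5 CPM in the library labelled untreated among them. CD3D and CD2 (T cells), MS4A1 (B cells), FCGR3A (myeloid cells), CDH5 (endothelium) and COL3A1 (fibroblasts) were at 0 UMIs in both libraries. The summed level in the library labelled treated and the library labelled untreated was 0 and 0.0878 CPM for T cell markers, 1.23 and 4.26 CPM for B cell markers, all of it CD79A, 0.715 and 1.65 CPM for myeloid markers, 6.60 and 6.56 CPM for endothelial markers, 17.95 and 29.26 CPM for fibroblast markers, most of it DCN, and 316.0 and 315.1 CPM for keratinocyte markers, nearly all of it KRT10, with KRT5 at 2.78 and 4.32 CPM.

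RefSeq promoters (build GRCh38.p14, 250 bases before to 50 after the start) were at hand for 9 of the 10 genes, IER3 being the one without. The build named in the submitters' processing notes for the counts is hg19, so these coordinates belong to the sequences alone. The 250 bases before the start are shown for 4 genes of unlike abundance: FOS and EGR1, which were nearly silent, and JUND and KLF6, which were common. Over all cells each of them was higher in the library labelled treated, FOS and EGR1 from few UMIs. Capitals mark words found in a search of both strands: TATAAA in FOS, the CArG boxes to which SRF binds (CC, a run of A or T, GG) in EGR1, TGACGTCA (the cyclic AMP response element) in JUND, and GCGGGGGCG (a form of the EGR word) in KLF6.
FOS, chr14:75278578-75278827, plus strand: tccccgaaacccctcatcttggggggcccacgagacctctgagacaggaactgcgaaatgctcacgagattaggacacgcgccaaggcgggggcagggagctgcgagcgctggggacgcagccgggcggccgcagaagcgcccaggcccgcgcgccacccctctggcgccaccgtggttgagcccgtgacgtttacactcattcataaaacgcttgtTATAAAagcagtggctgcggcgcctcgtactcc
EGR1, chr5:138465229-138465478, plus strand: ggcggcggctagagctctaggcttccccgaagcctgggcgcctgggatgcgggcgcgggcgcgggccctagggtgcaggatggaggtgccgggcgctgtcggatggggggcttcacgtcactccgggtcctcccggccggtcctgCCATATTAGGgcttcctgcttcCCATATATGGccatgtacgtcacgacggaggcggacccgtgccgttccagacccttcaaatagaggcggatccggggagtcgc
JUND, chr19:18281623-18281872, minus strand: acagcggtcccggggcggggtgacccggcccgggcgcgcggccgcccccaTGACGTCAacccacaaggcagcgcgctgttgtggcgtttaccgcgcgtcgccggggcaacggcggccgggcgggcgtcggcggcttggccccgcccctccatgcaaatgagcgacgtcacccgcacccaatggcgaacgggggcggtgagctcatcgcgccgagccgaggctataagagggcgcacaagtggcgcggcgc
KLF6, chr10:3785210-3785459, minus strand: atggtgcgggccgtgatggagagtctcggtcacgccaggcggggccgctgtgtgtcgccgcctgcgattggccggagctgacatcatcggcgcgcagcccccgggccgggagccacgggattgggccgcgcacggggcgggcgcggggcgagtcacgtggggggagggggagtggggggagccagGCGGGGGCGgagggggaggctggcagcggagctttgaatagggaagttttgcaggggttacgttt

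Of the 35116 promoters of the same length, 11.5% held TATAAA, 1.29% a CArG box, 1.85% TGACGTCA and 5.07% GCGGGGGCG. TATAAA was found in FOS at -33, in FOSB at -30 and in JUNB at -31, counted from the start. EGR1 held 2 CArG boxes, at -105 and -83, the word of JUND lay at -200 and that of KLF6 at -65. The AP-1 word TGANTCA was in 7.71% of all promoters and in 0 of the 9, and GCGTGGGCG, the second form of the EGR word, was in 0.795% and in 0 of the 9; JUN, IER2 and IER5 held none of the words searched. The 9 upstream windows held 62.0% to 74.8% G and C, against a median of 58.0% over all promoters. These matches describe letters and say nothing of binding in WaGa cells.

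The 10 genes fell into a common and a rare class. JUN, JUNB, JUND, IER2, IER5 and KLF6 lay between 29.3 and 111.2 CPM in both libraries, whereas FOS, FOSB and EGR1 stayed below 1 CPM and IER3 lay in between. Summed over the 10 genes, the level was 387.5 CPM in the library labelled treated and 423.5 CPM in the library labelled untreated. The genes did not move as a group. Among the 8 with at least 50 UMIs over both libraries, 3 had a ratio above 1 and 5 below 1, the median log2 ratio was -0.20, and the median over all 13958 genes with that many UMIs was -0.02.

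**Figure D1:**
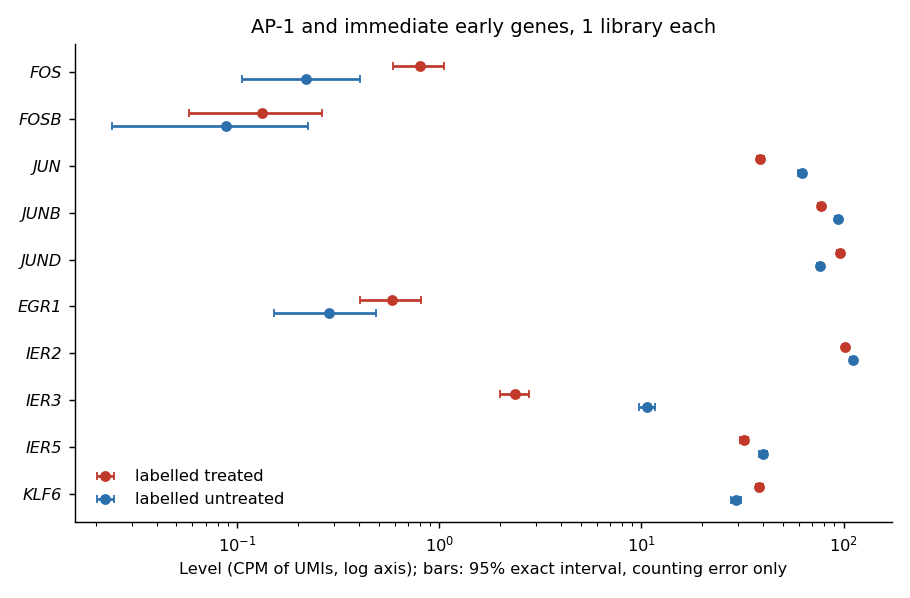
Level of each gene in CPM (log axis) in the library labelled treated (red) and the library labelled untreated (blue), with 95% exact intervals. JUN, JUNB, IER2, IER3 and IER5 lie lower in the library labelled treated and JUND and KLF6 higher, and FOS, FOSB and EGR1 stay below 1 CPM in both.

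Counted at 1.5-fold, 1 of the 8 genes, FOS, was higher in the library labelled treated and 2, JUN and IER3, were lower. Over all genes 3.77% were as far higher and 14.9% as far lower. Large ratios were more common among weakly counted genes. Of the 2312 genes with 50 to 200 UMIs, the range of FOS, 8.74% were at least 1.5-fold higher and 41.4% as far lower, and of the 3912 genes with 200 to 1000 UMIs, the range of IER3, 20.0% were at least 1.5-fold lower. Of the 6103 genes with 1000 to 10000 UMIs, the range of JUN, 5.11% were at least 1.5-fold lower.

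The 3 Jun genes differed from each other in direction. JUN, the AP-1 subunit named after the avian sarcoma virus oncogene, had 2327 UMIs or 38.7 CPM in the library labelled treated and 2822 UMIs or 61.9 CPM in the library labelled untreated, a ratio of 0.625 (0.591 to 0.660). JUNB, which forms weaker activating dimers and can oppose JUN, had 77.0 CPM in the library labelled treated and 93.4 CPM in the library labelled untreated, a ratio of 0.824 (0.790 to 0.859). JUND went the other way, with 95.8 CPM in the library labelled treated and 76.6 CPM in the library labelled untreated, a ratio of 1.25 (1.20 to 1.30). None of these 3 intervals overlaps another. Thus over all cells JUNB and JUND stood in opposite order in the libraries: JUND above JUNB in the library labelled treated, and JUNB above JUND in the library labelled untreated. Their order within cell cycle phases is given below.

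Cells with a UMI followed the same order once depth was made equal. Each cell was thinned at random to 4351 UMIs, a depth that the shallowest 10% of cells labelled treated lacked, which kept 6012 cells labelled treated and 3892 labelled untreated and left out 667 and 245 shallower ones. JUN was then found in 15.8% (14.9% to 16.8%) of cells labelled treated and 23.3% (22.0% to 24.7%) of cells labelled untreated, and without thinning in 26.8% and 42.5%. JUNB was found in 27.5% (26.3% to 28.6%) of thinned cells labelled treated and 31.7% (30.2% to 33.2%) of those labelled untreated, without thinning 43.3% and 53.9%. JUND was found in 33.0% (31.8% to 34.2%) of thinned cells labelled treated and 27.2% (25.8% to 28.6%) of those labelled untreated, while without thinning, at median depths of 8578 and 11125 UMIs, the shares were 54.6% and 53.2%. With a single cell line there was no cell type known to lack these genes, so the share that free RNA in the droplets gives could not be measured.

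**Figure D2:**
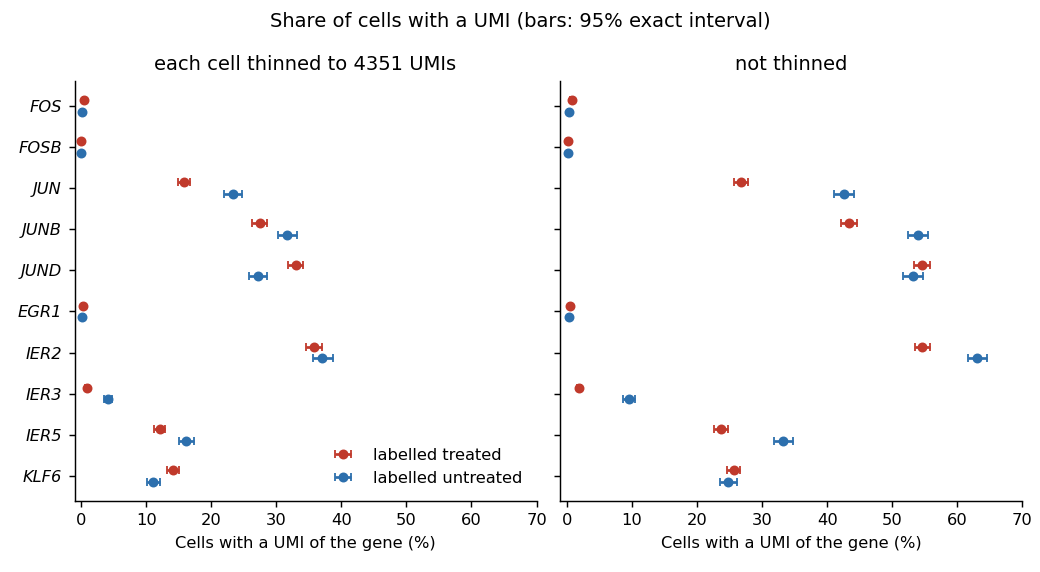
Share of cells with a UMI of each gene, with 95% exact intervals, after thinning each cell to 4351 UMIs (left) and without thinning (right); red is the library labelled treated and blue the library labelled untreated. The JUND shares lie apart after thinning (33.0% and 27.2%) and close together without it (54.6% and 53.2%).

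The Fos genes were nearly silent in both libraries. FOS had 48 UMIs in the library labelled treated, or 0.798 CPM (0.588 to 1.06), and 10 UMIs in the library labelled untreated, or 0.219 CPM (0.105 to 0.404), a ratio of 3.64 (1.82 to 8.06). No cell held more than 2 FOS UMIs in the library labelled treated or more than 1 in the library labelled untreated, and without the 2 richest cells of each library the ratio was 4.26 (1.99 to 10.5). The transcript was found in 0.704% (0.517% to 0.935%) of all cells labelled treated and 0.242% (0.116% to 0.444%) of all cells labelled untreated. After thinning the shares were 0.449% and 0.154%, and the ratio was 2.91 (1.18 to 8.63) from 27 and 6 UMIs. FOSB, the closest relative of FOS in the list, had 8 UMIs in the library labelled treated and 4 in the library labelled untreated, and its ratio of 1.51 (0.406 to 6.87) was not distinguishable from 1 at this depth.

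Among thinned cells labelled treated, 18 of the 27 with a FOS UMI also held IER2, or 66.7% (46.0% to 83.5%), against 35.6% of the 5985 cells without FOS. JUN was found in 10 of the same 27 cells, or 37.0% (19.4% to 57.6%), against 15.7% of those without FOS. For JUND the shares were 29.6% (13.8% to 50.2%) and 33.0%, and for JUNB 37.0% (19.4% to 57.6%) and 27.4%. KLF6 had 25.9% (11.1% to 46.3%) and 14.1%, and IER5 7.41% (0.910% to 24.3%) and 12.1%. For JUND, JUNB, KLF6 and IER5 the interval held the share without FOS. In the library labelled untreated only 6 thinned cells held FOS, too few to compare, with IER2 in 3 and JUN in 1 of them. This look at FOS cells was chosen after the values were seen, and cells of a single library are not replicates.

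EGR1 and KLF6 encode zinc finger transcription factors. EGR1, an immediate early factor induced through SRF in many cells, had 35 UMIs or 0.582 CPM (0.405 to 0.809) in the library labelled treated and 13 UMIs or 0.285 CPM (0.152 to 0.488) in the library labelled untreated, a ratio of 2.04 (1.05 to 4.20). The thinned ratio was 1.38 (0.563 to 3.68) from 17 and 8 UMIs, so the difference was not detectable at that depth. KLF6, a Krüppel-like factor that binds GC-rich promoters, had 2301 UMIs or 38.2 CPM in the library labelled treated and 1335 UMIs or 29.3 CPM in the library labelled untreated, a ratio of 1.31 (1.22 to 1.40). It was found in 14.2% (13.3% to 15.1%) of thinned cells labelled treated and 11.1% (10.1% to 12.1%) of those labelled untreated, and without thinning in 25.6% and 24.8%.

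All 3 IER genes had ratios below 1, of very different size. IER2, a nuclear immediate early protein gene, was the most abundant of the 10 in both libraries, with 101.9 CPM in the library labelled treated and 111.2 CPM in the library labelled untreated, a ratio of 0.916 (0.883 to 0.951). IER5, whose product is known to act with the heat shock factor HSF1, had 32.1 CPM in the library labelled treated and 39.8 CPM in the library labelled untreated, a ratio of 0.807 (0.757 to 0.861). IER2 was found in 35.8% (34.6% to 37.0%) of thinned cells labelled treated and 37.1% (35.6% to 38.6%) of those labelled untreated, so its shares were not distinguishable at this depth. IER5 was found in 12.1% (11.3% to 12.9%) of thinned cells labelled treated and 16.16% (15.02% to 17.36%) of those labelled untreated. Thinned instead to 8578 UMIs, which kept 3340 cells labelled treated and 2897 labelled untreated, the IER5 shares lay closer, at 24.4% (22.9% to 25.9%) and 25.9% (24.3% to 27.5%), whereas those of JUN stayed apart, at 26.0% and 36.8%. IER3, a stress-induced gene linked to the control of apoptosis, showed the largest difference of the common and intermediate genes, with 142 UMIs or 2.36 CPM (1.99 to 2.78) in the library labelled treated and 487 UMIs or 10.7 CPM (9.76 to 11.7) in the library labelled untreated. Its ratio was 0.221 (0.182 to 0.267). In the GENCODE annotation IER3 overlaps the antisense gene IER3-AS1, JUNB lies within HOOK2 and FOSB within ERCC1 on the opposite strand, and IER2 overlaps an antisense gene as well. Whether counting used the strand is not given in the sources used here, and without it reads of such pairs cannot be told apart.

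IER3 was found in a small share of cells. It was detected in 1.81% of all cells labelled treated and 9.48% of all cells labelled untreated, and in 0.898% (0.675% to 1.17%) and 4.09% (3.49% to 4.76%) of thinned cells. The richest cell held 6 UMIs in the library labelled treated and 19 in the library labelled untreated, and the 2 richest cells held 11 of 142 and 26 of 487, so a few cells weigh on its spread. Variance over mean of the IER3 counts was 1.56 among cells labelled treated and 2.20 among cells labelled untreated without thinning, and 1.23 and 1.33 after it; a Poisson count has a value of 1. For IER2 the thinned values were 1.14 among cells labelled treated and 1.30 among cells labelled untreated, with up to 10 and 9 UMIs in a cell. JUND was the most even of the common genes besides IER5, at 1.06 and 1.05.

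The genes were then set out by cell cycle phase, called in thinned cells from S phase and G2/M genes of which none is among the 10. The library labelled treated had 5.94% of 6012 cells called G1, 47.1% S and 47.0% (45.7% to 48.2%) G2/M, and the library labelled untreated had 10.4% of 3892 cells called G1, 55.2% S and 34.4% (32.9% to 35.9%) G2/M. Such calls come from transcript scores, and division itself was not measured. KLF6, JUNB and IER2 differed between phases in the same sense in both libraries. KLF6 was 2.79 times (1.92 to 4.20) as high in cells called G2/M as in cells called G1 in the library labelled treated, and 2.03 times (1.45 to 2.90) in the library labelled untreated. JUNB was lower in cells called G2/M, at 0.526 times (0.439 to 0.634) the G1 level in the library labelled treated and 0.491 times (0.414 to 0.583) in the library labelled untreated, and IER2 was at 0.658 times (0.564 to 0.770) and 0.605 times (0.523 to 0.702).

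**Figure D3:**
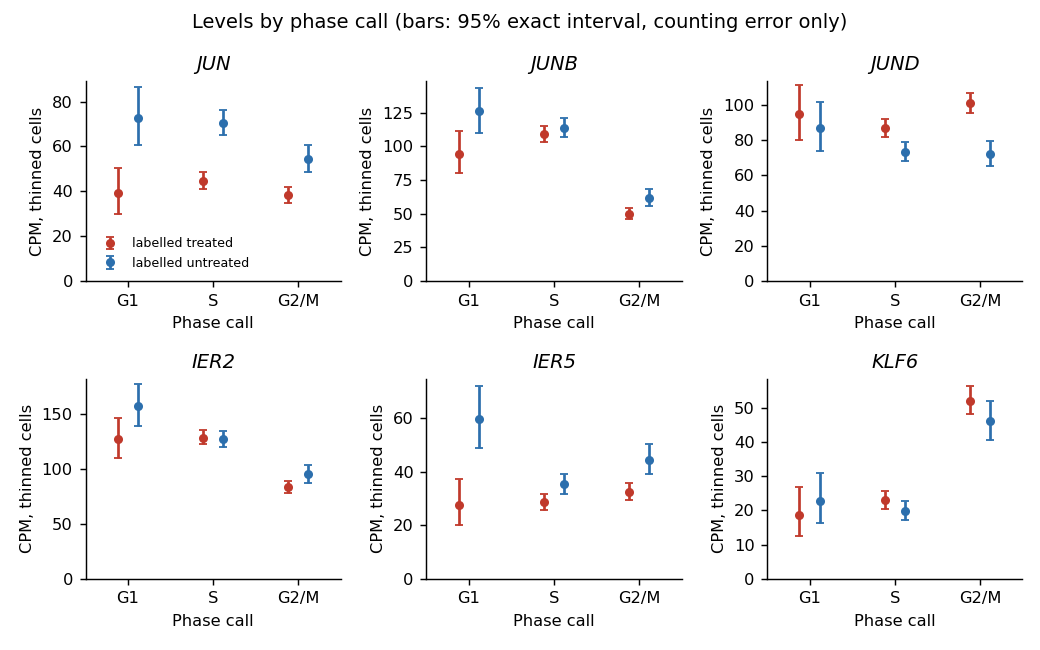
Level of the 6 common genes in thinned cells of each phase call, in CPM with 95% exact intervals; red is the library labelled treated and blue the library labelled untreated. KLF6 is highest and JUNB and IER2 are lowest in cells called G2/M in both libraries, and the JUN levels lie apart in every phase.

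JUN was lower in the library labelled treated in every phase. Its level was 39.3 CPM in thinned cells labelled treated and 72.6 CPM in those labelled untreated among G1 calls, 44.8 and 70.6 CPM among S calls, and 38.2 and 54.5 CPM among G2/M calls. The ratios were 0.541 (0.392 to 0.739), 0.635 (0.566 to 0.712) and 0.701 (0.607 to 0.811), and all 3 intervals lay below 1. IER3 had ratios of 0.0667 (0.00160 to 0.426) among G1 calls, from 1 and 17 UMIs, 0.185 (0.108 to 0.305) among S calls and 0.222 (0.147 to 0.331) among G2/M calls. IER5 had 0.465 (0.318 to 0.668), 0.810 (0.695 to 0.944) and 0.732 (0.624 to 0.859). JUND was higher among S calls, at 1.18 (1.07 to 1.31), and G2/M calls, at 1.40 (1.25 to 1.57), and its G1 interval (0.863 to 1.38, around a ratio of 1.09) held 1. Among S calls JUNB lay above JUND in both libraries, at 109.1 and 86.9 CPM labelled treated and 113.8 and 73.4 CPM labelled untreated. Among G2/M calls JUND lay above JUNB in both, at 101.2 and 49.8 CPM labelled treated and 72.1 and 61.8 CPM labelled untreated. Among G1 calls both had 94.6 CPM labelled treated, and JUNB had 126.0 and JUND 86.8 CPM labelled untreated. FOS had a ratio of 6.07 (1.43 to 54.4) among S calls, from 16 and 2 UMIs, and 1.58 (0.407 to 8.93) among G2/M calls, from 10 and 3 UMIs. EGR1 had 4.18 (0.911 to 38.8) among S calls, from 11 and 2 UMIs, and 0.569 (0.145 to 2.36) among G2/M calls, from 6 and 5 UMIs, and no direction can be read from either of these thinned ratios. With all UMIs of the same cells, EGR1 had 3.69 (1.19 to 15.2) among S calls, from 16 and 4 UMIs. Among G2/M calls it then had 1.26 (0.514 to 3.37), from 17 and 8 UMIs.

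For JUNB, IER2 and KLF6 the difference between libraries was smaller within some phases, with intervals that held 1 in thinned cells. Among S calls JUNB had a ratio of 0.959 (0.884 to 1.04) and IER2 of 1.01 (0.936 to 1.09), whereas among G2/M calls they had 0.805 (0.706 to 0.920) and 0.877 (0.790 to 0.974). Among G1 calls both lay farther below 1, JUNB at 0.751 (0.606 to 0.929) and IER2 at 0.807 (0.669 to 0.972), against 0.827 and 0.899 over all thinned cells. KLF6 had ratios of 0.822 (0.492 to 1.36) among G1 calls, 1.16 (0.958 to 1.40) among S calls and 1.13 (0.980 to 1.31) among G2/M calls, each interval holding 1. With each library scored alone, 7.09% of cells labelled untreated were called G1, the KLF6 ratio among G2/M calls was 1.17 (1.02 to 1.36) and the JUND ratio among G1 calls was 1.31 (1.01 to 1.69). With all UMIs of the same cells in place of thinned ones, the KLF6 ratios among S and G2/M calls were 1.18 (1.04 to 1.34) and 1.20 (1.10 to 1.32). The JUNB ratio among S calls was then 0.936 (0.887 to 0.987), and 0.925 (0.878 to 0.974) with each library scored alone, both intervals below 1. For IER2 it was 1.03 (0.984 to 1.09), an interval that still held 1. Weighting the phases alike in both libraries, an alternative added after the values were seen, put the KLF6 ratio at 1.12, against 1.25 (1.12 to 1.40) in thinned cells as they were. The same step gave 0.894 for JUNB against 0.827 (0.775 to 0.883) and 0.943 for IER2 against 0.899. It left JUN at 0.650 against 0.634, JUND at 1.27 against 1.26, IER5 at 0.736 against 0.742 and IER3 at 0.197 against 0.212. The share of G2/M calls was larger in the library labelled treated, and its part in any of these ratios was not tested.

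**Figure D4:**
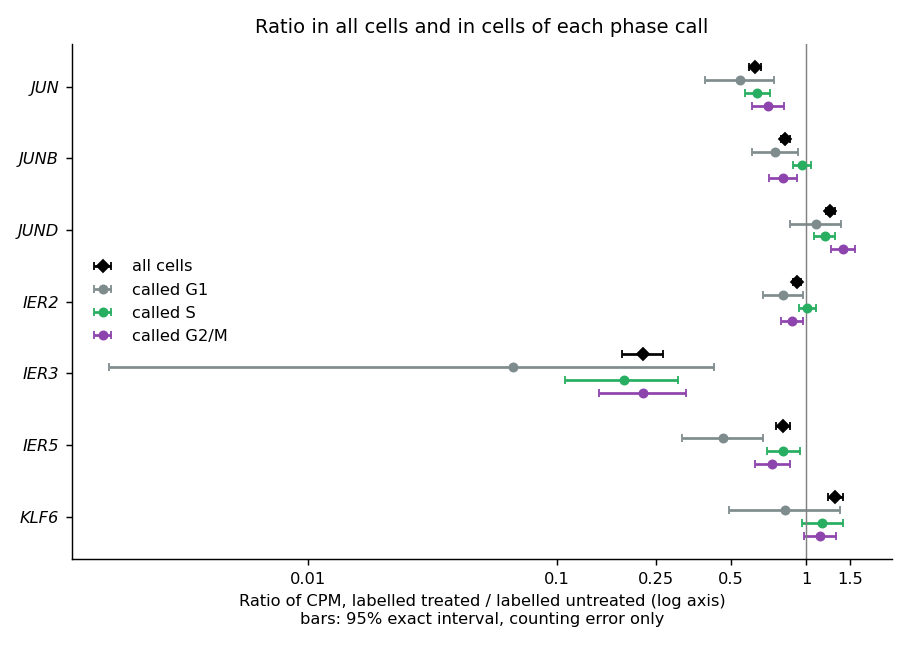
Ratio of CPM, library labelled treated over library labelled untreated (log axis), in all cells (black) and in thinned cells called G1, S or G2/M, with 95% exact intervals. JUN, IER3 and IER5 lie below 1 in every phase, JUND lies above 1 in S and G2/M calls, and every KLF6 interval within a phase holds 1 with both libraries scored together.

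Few cells held many of the 10 genes at once. Thinned cells labelled treated held a median of 1 UMI of the 10 genes together and at most 13, and thinned cells labelled untreated a median of 2 and at most 17. None of the 10 was found in 20.4% (19.3% to 21.4%) of thinned cells labelled treated and 18.3% (17.1% to 19.5%) of those labelled untreated, and the largest number of the genes found in a cell was 6 in both libraries. Variance over mean of the summed count was 1.19 among cells labelled treated and 1.32 among cells labelled untreated. Over the 15 pairs of the 6 common genes, Pearson's r across thinned cells had a median of 0.00409 in the library labelled treated and 0.00432 in the library labelled untreated. The cells of each library share its preparation and were thinned to one depth, and at such sparse counts a weak r is no finding.

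Among these pairs the highest r was that of JUNB with IER2, 0.0976 across 6012 cells labelled treated and 0.136 across 3892 cells labelled untreated. Both transcripts were found in 695 thinned cells labelled treated, where the product of their shares gives 590.7, and in 552 cells labelled untreated, where it gives 457.8. Both genes were also lower among G2/M calls. KLF6 was most like UBE2C, which encodes a mitotic ubiquitin-conjugating enzyme, with r of 0.173 in the library labelled treated and 0.124 in the library labelled untreated, then the kinetochore gene CENPF (0.160 and 0.125) and the DNA helicase gene PIF1 (0.164 and 0.119). UBE2C and CENPF are on the G2/M list used for the calls. Of the other genes most like a member, PCNA, the replication clamp gene, was among the first 3 for JUNB (0.119 and 0.0862) and IER2 (0.0773 and 0.0972), and it is on the S phase list. ID3, an inhibitor of basic helix-loop-helix factors, was among the first 3 for JUN, JUNB and IER5, with r from 0.0284 to 0.0783 in the library labelled treated and from 0.0808 to 0.138 in the library labelled untreated. For JUND no gene exceeded a mean r of 0.0487 over the libraries, that of KIAA2013.

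Among the other AP-1 partners measured, the widest differences were lower levels in the library labelled treated. Of 14 AP-1 partners and related bZIP factors, 10 had at least 50 UMIs, and by the 1.5-fold count 0 were higher and 3 lower, against 3.77% and 14.9% of all genes; the median log2 ratio was -0.21. As far lower were 41.4% of genes with 50 to 200 UMIs, the range of FOSL2, and 20.0% of those with 200 to 1000, the range of ATF3 and BATF3. The 3 were BATF3, a partner of Jun proteins in immune cells, with 1.28 CPM in the library labelled treated and 11.9 CPM in the library labelled untreated (ratio 0.108, 0.0836 to 0.137), the stress-induced ATF3 with 2.48 and 7.62 CPM (0.325, 0.267 to 0.395), and FOSL2 with 1.28 and 2.37 CPM (0.540, 0.398 to 0.730). ATF7 and ATF2, CRE-binding partners of JUN, had ratios of 1.19 (1.07 to 1.32) and 1.14 (1.02 to 1.27), and MAFG of 1.07 (0.991 to 1.15). FOSL1 had 4 UMIs in the library labelled treated and 1 in the library labelled untreated, and BATF had 0 in both.

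Of 25 other immediate early genes, 18 were measured, with 0 higher and 7 lower by the 1.5-fold count and a median log2 ratio of -0.36. Over all genes 14.9% were as far lower. As far lower were 41.4% of genes with 50 to 200 UMIs, the range of CYR61, and 20.0% of those with 200 to 1000, the range of KLF10. Of genes with 1000 to 10000 UMIs, the range of SGK1, 5.11% were. The 7 of 18 are a larger share than that of all genes, and whether this is a property of the list was not tested. SGK1, a stress-regulated kinase gene, had 7.31 CPM in the library labelled treated and 19.1 CPM in the library labelled untreated (ratio 0.382, 0.340 to 0.429), the matricellular gene CYR61 a ratio of 0.461 (0.337 to 0.626) and KLF10 of 0.638 (0.560 to 0.726). KLF2 and NR4A2, a nuclear receptor gene, were slightly higher, at 1.19 (1.05 to 1.36) and 1.19 (1.04 to 1.35), and the survival gene MCL1 was at 1.07 (0.988 to 1.17). EGR2 had 0 UMIs in the library labelled treated and 2 in the library labelled untreated, EGR3 had 0 in both and EGR4 had 2 and 0, so the EGR family was close to silent as a whole. Of 12 textbook AP-1 targets, 5 reached 50 UMIs and 3 were at 0 in both libraries. All 5 measured had ratios below 1, as did 7344 of all 13958 measured genes. By the 1.5-fold count 0 were higher and 3 lower, against 3.77% and 14.9% of all genes. As far lower were 41.4% of genes with 50 to 200 UMIs, the range of PLAU, and 20.0% of those with 200 to 1000, the range of HMOX1 and MMP9. Neither count is read as a property of the list. CD44, a cell adhesion receptor gene, was more abundant than any of the 10 genes, with 216.3 CPM in the library labelled treated and 231.6 CPM in the library labelled untreated (ratio 0.934, 0.910 to 0.958), and the urokinase receptor gene PLAUR had a ratio of 0.901 (0.804 to 1.01). HMOX1, a heme-degrading enzyme gene, had a ratio of 0.155 (0.114 to 0.208), MMP9 of 0.192 (0.163 to 0.224) and PLAU of 0.435 (0.319 to 0.588), while MMP1, MMP3 and VIM had 0 UMIs in both libraries.

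Feedback regulators that end the response, phosphatases and RNA-binding proteins among them, went both ways. Of 19, 12 were measured, with 0 higher and 2 lower by the 1.5-fold count, against 3.77% and 14.9% of all genes. The median log2 ratio was -0.21. As far lower were 20.0% of genes with 200 to 1000 UMIs, the range of DUSP10, and 5.11% of those with 1000 to 10000, the range of ZFP36L1. The count is therefore not read as a property of the list. ZFP36L1, which binds AU-rich elements of short-lived transcripts, had 3.12 CPM in the library labelled treated and 18.8 CPM in the library labelled untreated (ratio 0.167, 0.141 to 0.195), and its relative ZFP36L2 went the other way at 1.19 (1.11 to 1.28). Among the MAPK phosphatases DUSP1 and DUSP8 had a ratio of 1.29 each (1.14 to 1.45 and 1.16 to 1.42), DUSP10 of 0.657 (0.538 to 0.802) and DUSP14 of 0.752 (0.693 to 0.816).

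The measured kinases and promoter factors upstream stayed within 1.5-fold. Of 28, 25 were measured, 0 were 1.5-fold apart in either direction, and the median log2 ratio was 0.07. Over all genes 3.77% were as far higher and 14.9% as far lower. Most of the 25 had 1000 to 10000 UMIs, where 2.08% of genes were as far higher and 5.11% as far lower. The count is therefore not read as a property of the list. SRF, which binds CArG boxes, was the highest, with 8.63 CPM in the library labelled treated and 5.86 CPM in the library labelled untreated (ratio 1.47, 1.27 to 1.71). EP300, an acetyltransferase coactivator, had 1.40 (1.25 to 1.56) and MAP2K7, a kinase of the JNK branch, 1.31 (1.24 to 1.37). RPS6KA1, a kinase that ERK activates, had 0.706 (0.645 to 0.773), and the SRF cofactor gene MKL1 had 0.744 (0.630 to 0.879).

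**Figure D5:**
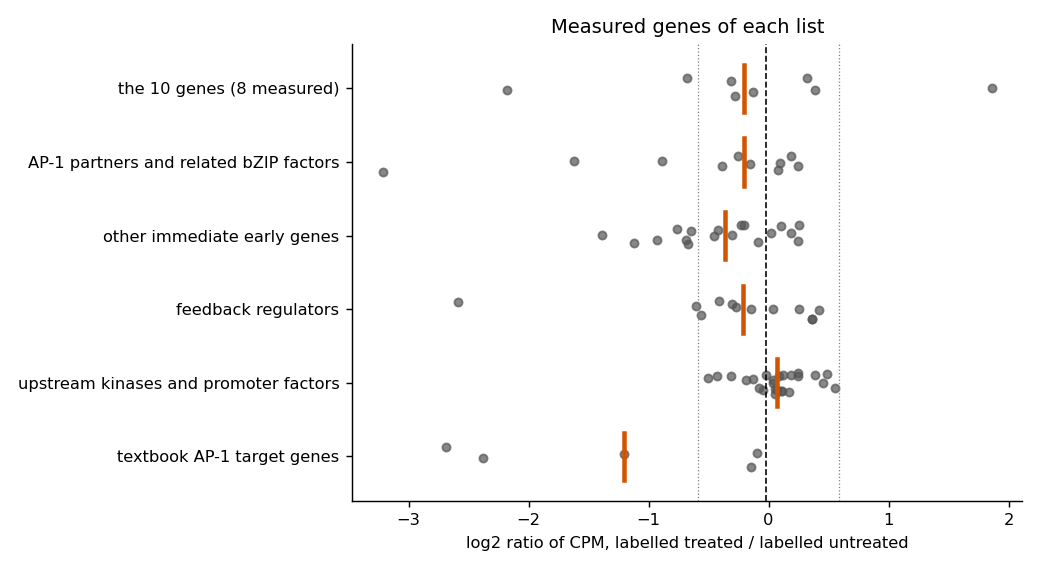
log2 ratio of CPM, library labelled treated over library labelled untreated, of each measured gene (points, spread vertically for visibility) of the 10 genes and of 5 related lists; orange bars are list medians, the dashed line the median of all measured genes and dotted lines 1.5-fold. Upstream kinases and promoter factors lie within 1.5-fold, and the points beyond it in the other 4 lists are all lower. Of all measured genes, 3.77% were as far higher and 14.9% as far lower.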

How the data were processed

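Single-cell RNA of WaGa cells was measured in 2 samples, 1 treated and 1 untreated. Cell Ranger, Seurat and the build hg19 are named, without tool versions, per the submitters' processing notes; which annotation and cell filters were used is not given in the sources used here. Natural log values were deposited by the authors in 1 table, each the natural log of 1 plus counts per 10000 counts of the cell. Taking the smallest value above 0 in each cell as 1 UMI, 100% of values came out as whole numbers within 1e-06, and these counts were analysed (deposited per-sample columns left unused: 0). No deposited cells were left out and doublets were not called. The largest number of genes in a cell was 4995 in both libraries. The largest share of mitochondrially encoded UMIs was 9.99% in the library labelled treated and 9.96% in the library labelled untreated. Cells thus appear to have been cut on both measures before deposit, by limits that are not given. The ratio of CPM has a 95% exact conditional interval (Clopper-Pearson on the share of a gene's UMIs in the library labelled treated); shares and CPM have Clopper-Pearson intervals. PCR duplicates are removed by UMIs, and all intervals cover counting error only.

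The 10 genes, the related lists and the alternatives were chosen with earlier results of these data known. Named are all 10, CDKN1A, up to 3 genes at each end of every related list by the interval bound nearest to 1, and the 3 genes most like each member found in at least 10% of thinned cells (mean Pearson's r of natural log values, genes with at least 500 UMIs in each library); genes at 0, FOSL1, EGR2, EGR3, EGR4, CD44, PLAUR and markers were named after their values were seen. Some genes that this rule or the marker lists hold are not reported here. Phases were called with scanpy 1.11.5 on both libraries together; 40 of 43 S and 54 of 54 G2/M genes were in the table. Ratios and intervals were tested on simulated data. Python 3.11.15, numpy 2.4.6 and scipy 1.17.1 were used.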

Additional observations from a re-analysis of the deposited data

How the results depend on the processing

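No paired analysis was possible because each condition had 1 library, and for the same reason no library could be left out. Median-ratio scaling, library totals taken without ribosomal protein and mitochondrially encoded genes, and leaving out the deepest 5% of cells, the shared barcodes or the 2 cells richest in each gene kept all 10 ratios inside their intervals; equal weight for each cell moved only IER2, to 0.869, and thinning only IER5, to 0.742. Genes at least 1.5-fold higher and lower numbered 1604 and 4411 when 1 UMI per library sufficed, 324 and 1127 when 200 UMIs were required, and 42 and 207 with a pseudocount of 0.1 per 10000, against 526 and 2084; in cells called G1, with 8139 genes measured, 733 were lower. The minimum changes which genes are counted, and the pseudocount shrinks weakly counted genes. Of the 10 genes, those at least 1.5-fold higher numbered 3 with a minimum of 1 UMI and 0 with a minimum of 200 UMIs, with the pseudocount, in thinned cells and in cells called G1, S or G2/M, FOS having under 50 UMIs in the last 4, at ratios of 2.91, 3.48, 5.35 and 2.56; with the pseudocount its ratio was 1.06. Of the 2 lower ones, JUN and IER3, 1 was left with the pseudocount and 1 in cells called G2/M, where JUN was at 0.738. The median log2 ratio was 0.10 with a minimum of 1 UMI, which lets in FOSB and EGR1, -0.43 in cells called G1 and -0.10 in cells called S, against -0.20. The sign turned for FOSB, at log2 ratios of -0.76 in cells called G2/M and -0.70 with each library scored alone, from 3 and 3 UMIs, and for EGR1, at -0.053 in cells called G1 with each library scored alone, from 1 and 1 UMI; in thinned cells called G2/M the EGR1 ratio was 0.569, and 0.597 with each library scored alone. IER2 was at 1.03 in cells called S and KLF6 at 0.892 in cells called G1. Scored alone, the G1 shares were 5.79% of cells labelled treated and 7.09% of cells labelled untreated and the G2/M shares 44.9% and 34.5%. FOS, FOSB and EGR1 are limited by depth, with 58, 12 and 48 UMIs in all.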
